A study of Mus musculus with 653 samples.

Results

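The cells compared here were 56 hepatoblasts from the E10.5 mouse liver, chosen by their read counts among 414 E10.5 cells and 653 cells in all. A cell was taken as a hepatoblast when it held more than 10 reads of *Afp* and more than 10 reads of at least 3 of the 5 genes *Alb*, *Apoa1*, *Apoa2*, *Fgb* and *Hnf4a*. Of these cells, 23 held more than 10 *Lgr5* reads (Lgr5-high) and 16 held 0 (Lgr5-zero), whereas 17 held 1 to 4 reads and were kept apart. The classes were thus set by measured values, so that the levels of *Lgr5* and of the gate genes are a description of the choice and not a result. Embryos came from Lgr5-EGFP-IRES-creERT2 males, kept on C57BL/6, crossed with MF1 females, and in this line GFP is expressed from the *Lgr5* locus. Cells were sorted as Liv2+/CD31-/CD45- (bulk) or as Liv2+/CD31-/CD45-/Lgr5-GFP+, and each cell was made into its own Smart-seq2 library, in which full-length cDNA of 1 cell is amplified without molecular identifiers. All 23 Lgr5-high cells and 14 of the 16 Lgr5-zero cells came from the Lgr5-GFP+ sort, and the other 2 Lgr5-zero cells from the bulk sort. Nearly the whole comparison was therefore made among cells that carried GFP and that differed in *Lgr5* transcript.

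Hepatoblasts are the progenitors of the fetal liver that give rise to both hepatocytes and the cholangiocytes of the bile ducts, and they make Afp and other plasma proteins before the organ takes on its adult functions. Lgr5 is a receptor for R-spondins, secreted proteins that strengthen Wnt signalling by removing the ubiquitin ligases Rnf43 and Znrf3 from the cell surface, where these would otherwise clear the Wnt receptors. In many epithelia *Lgr5* is itself switched on by Wnt signalling and marks stem or progenitor cells.

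Reads on genes per cell had a median of 1122380 in Lgr5-high cells (686383 to 1956394) and of 1277980 in Lgr5-zero cells (567698 to 1598405). The libraries belonged to 5 pools, and the pools were not spread evenly over the classes: 13 of 23 Lgr5-high cells but 4 of 16 Lgr5-zero cells came from pools 3 to 5. In pool 2, the median number of genes detected was 4772 in Lgr5-high and 5000 in Lgr5-zero cells. In pools 3 to 5 it was 7104 and 6484. The higher median of Lgr5-high cells over all pools (6644 against 5168) thus moved with the pools, and for this reason the ratios of many genes below are given also within pools 1 and 2 and within pools 3 to 5, in this order. Neither an animal nor a litter is named for any cell, so that each class counts as 1 sample and no test between the classes was made. Intervals are exact 95% intervals of the counts or shares and cover counting error only.

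**Figure D1:**
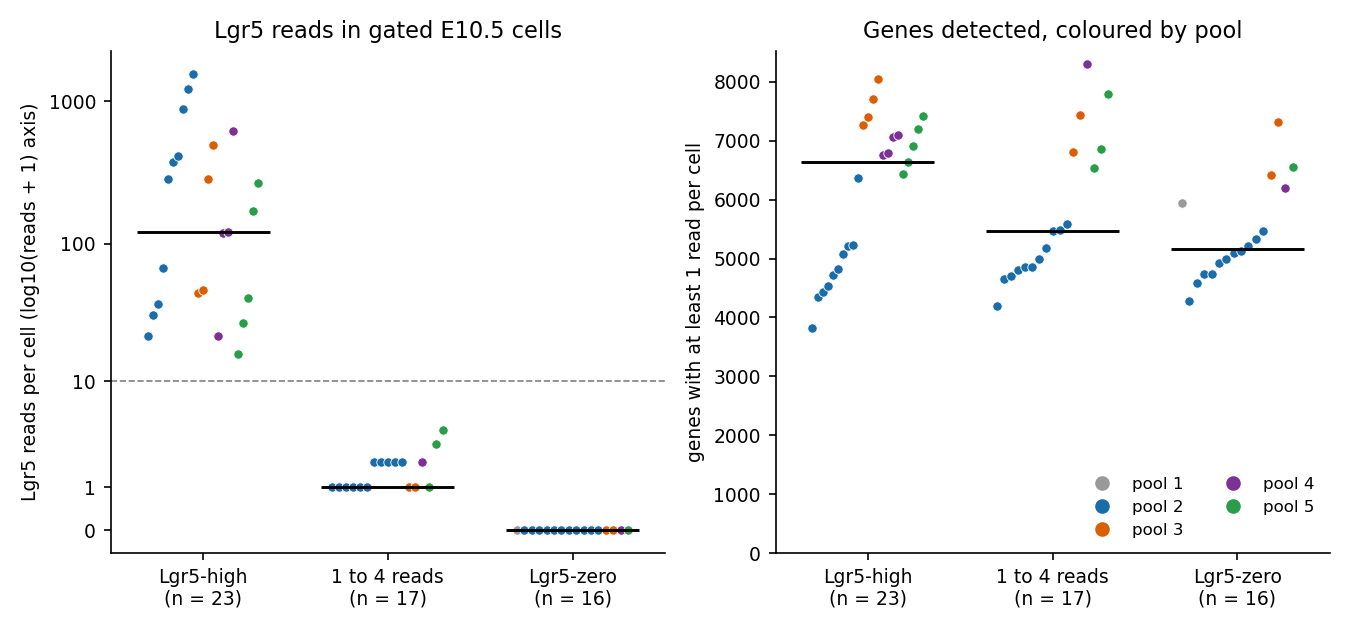
Reads of *Lgr5* (left, on a log10(reads + 1) axis, with a dashed line at 10 reads) and number of genes with at least 1 read (right) in each of the 56 gated E10.5 cells, by Lgr5 class. Each point is a cell coloured by its library pool and each bar is the class median. No cell lies between 4 and 16 *Lgr5* reads, and cells of pool 2 have fewer genes detected than most cells of pools 3 to 5 in every class.

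*Lgr5* (ENSMUSG00000020140, GRCm38 chr10:115450311-115587780, minus strand) was read between 16 and 1565 times in Lgr5-high cells. The highest cell below the threshold held 4 reads. Summed over the class and scaled to 1000000 reads on genes (RPM), *Lgr5* stood at 268 RPM in Lgr5-high cells (cells from 19.6 to 1297, median 111.3) and at 1.25 RPM in cells with 1 to 4 reads. In the 16 Lgr5-zero cells 0 of 19731198 reads fell on the gene, which allows up to 0.152 RPM. Lgr5-high cells made up 41.1% of the gated cells (95% interval 28.10 to 55.02). Their share was 10 of 32 cells in pool 2, 4 of 8 in pool 3, 4 of 6 in pool 4 and 5 of 9 in pool 5. Few reads of *Lgr5* did not set a cell apart, because 1 to 4 reads were found in 30.4% of gated cells (18.8 to 44.1, median depth 1247290) and 1 read in 22.2% (6 of 27, 8.62 to 42.3, median depth 1295730) of the E10.5 cells that carried more than 10 reads of both red cell regulators *Gata1* and *Klf1*. More than 10 reads were found in 0 of these 27 cells, which allows a share of up to 12.8%.

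Apart from *Afp* and *Hpx*, the gate genes and other plasma protein genes differed by less than 2-fold or in opposite directions between the pools. *Afp*, which encodes the main plasma protein of the fetus, ranged from 252 to 8349 RPM in Lgr5-high cells (median 1650) and from 230 to 4459 RPM in Lgr5-zero cells (median 1225), so that the cells overlapped over almost the whole range. Its summed level was 3168 RPM against 1407 RPM, that is 2.25-fold higher in Lgr5-high cells, but the log2 ratio was 0.15 within pools 1 and 2 and 0.58 within pools 3 to 5. *Afp* did not meet the rule used below for all genes when the highest cell of each class was left out. At the edge of the gate, *Afp* reads ran from 283 to 16334 in gated cells and from 22 to 1546 in the 7 E10.5 cells that had more than 10 *Afp* reads but too few of the other genes. *Apoa2* (7925 and 7625 RPM), *Fgb* (3660 and 2806 RPM) and *Hnf4a* (195.5 and 198.9 RPM), a nuclear receptor that directs hepatocyte genes, differed by less than 1.5-fold, as did *Alb*, which encodes albumin (1497 and 2125 RPM). Over 26 plasma protein genes the summed level was 47054 RPM in Lgr5-high and 43998 RPM in Lgr5-zero cells, with a log2 ratio of 0.00 in pools 1 and 2 and 0.03 in pools 3 to 5. *Apoc1* and *Fgg* were also past 2-fold in the sum (log2 ratios 1.157 and 1.004) but lay on opposite sides of 0 in the pool sets. *Hpx*, which encodes the haem carrier hemopexin, differed in the same direction in both, with medians of 128.2 and 0 RPM per cell, sums of 241 and 95.03 RPM, and log2 ratios of 0.49 and 0.78 within the pool sets.

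Markers of endothelial cells and leukocytes were low in both classes, whereas single cells carried erythroid or mesenchymal reads. The sum of 10 endothelial genes was 5.92 RPM in Lgr5-high and 7.80 RPM in Lgr5-zero cells, and that of 10 leukocyte genes 6.25 and 1.22 RPM. Erythroid genes summed to 236 and 170 RPM, mostly from *Tfrc*, the transferrin receptor (135.03 and 155.03 RPM), while *Gata1* and *Klf1* lay under 10 RPM. Single cells reached erythroid sums of 1816 RPM among Lgr5-high and 1182 RPM among Lgr5-zero cells (medians 83.3 and 15.1), and 99.6% of the reads of the embryonic globin *Hbb-y* in Lgr5-high cells came from 1 cell, at 762 RPM. The part of these reads in the differences below was not tested. The sum of 14 mesenchymal genes was 18.1 RPM in Lgr5-high and 146.8 RPM in Lgr5-zero cells, but a single Lgr5-zero cell of pool 2 held 1776 RPM and the next highest 50.1 RPM. That cell also held 534 RPM of *Kit*, 669 RPM of *Afp* and 0 RPM of *Pdgfra*. Without it, the mesenchymal sum of Lgr5-zero cells was 19.2 RPM, so that the calls of *Pdgfrb*, *Col1a1*, *Col1a2* and *Kit* as lower in Lgr5-high cells rest on this cell. Genes of the Y chromosome exceeded 10 reads in 11 of 23 Lgr5-high and in 5 of 16 Lgr5-zero cells.

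Across the genome, 8049 genes had a mean level of at least 10 RPM over the classes. A gene was counted as higher or lower when its summed level differed at least 2-fold and its ratio lay on the same side of 1 within each pool set. By this rule 1270 genes (15.8%) were higher and 827 (10.3%) lower in Lgr5-high cells, and the median log2 ratio over all 8049 genes was 0.08. A single cell often decided the call: when the highest cell of each class was set aside gene by gene, 730 of the higher genes (9.07% of all) and 215 of the lower genes (2.67%) were still counted. This step takes 1 of 23 Lgr5-high but 1 of 16 Lgr5-zero cells. The median log2 ratio rose from 0.08 to 0.51, and 6137 genes still reached 10 RPM. The higher and lower genes that were kept can therefore not be set against each other. The share of genes that met the rule varied with how often a gene was detected. Among genes found in 25 to under 50% of the 39 cells it was 21.44% higher and 13.49% lower, against 2.462% (13 of 528) and 1.894% (10 of 528) among genes found in every cell. The median measured gene was found in 56.4% of the cells.

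**Figure D2:**
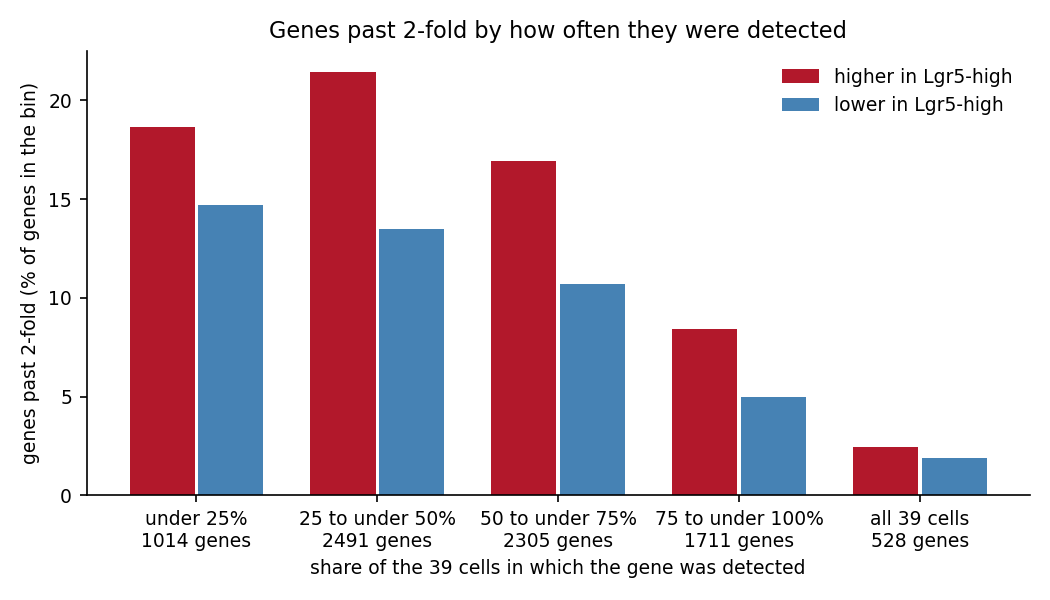
Share of genes at least 2-fold higher (red) or lower (blue) in Lgr5-high than in Lgr5-zero cells, on the y axis in % of the genes in each bin, by the share of the 39 cells in which the gene was detected. Bars start at 0, and the number of genes in each bin stands under it. The shares are 21.44% and 13.49% at 25 to under 50% detection and 2.462% and 1.894% among genes detected in all 39 cells.

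The genes found in all 39 cells that met the rule were looked up after their values had been seen. *Afp* is counted among them, but the gate required it in every cell, so that its detection is part of the choice. Higher in Lgr5-high cells were *Afp*, the chaperonin subunit *Cct2*, the translocon-associated protein *Ssr2* (1401 and 628 RPM), the splicing factor *Hnrnpm* (507.8 and 225.9 RPM), the ubiquitin-activating enzyme *Uba1* (341.8 and 141.5 RPM), the mitochondrial ribosomal protein *Mrps16* (285.5 and 134.7 RPM), *Rps28*, *Baz1b*, *Fam169a*, *Ttll4*, *Pxk*, *Calcrl* and *Aox4*. Lower were the valyl-tRNA synthetase *Vars*, the calmodulin gene *Calm3* (131.3 and 387.6 RPM), the proteasome subunit *Psma1*, the desaturase *Scd2*, the heparan sulphate polymerase *Ext1* (68.4 and 280 RPM), *Usp34* (288 and 603 RPM), *Exoc6b*, *Crot*, *Tcf4* and *Zeb1*. *Uba1* differed to a like degree in the pool sets, with log2 ratios of 1.64 in pools 1 and 2 and 1.22 in pools 3 to 5. For *Ssr2* the same ratios were 1.70 and 0.12, and for *Usp34* -1.59 and -0.01.

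Genes of the R-spondin and Wnt pathway did not move as a block. Of 9 genes for Lgr receptors, R-spondins and their ubiquitin ligases, 4 were measured. *Lgr5* was higher because the classes were set by it. Of the others only *Rnf43* was higher by the rule, against 15.8% of all measured genes. *Rnf43* was read more than 10 times in 7 of 23 Lgr5-high cells (0 to 723.3 RPM, median 0) and in 3 of 16 Lgr5-zero cells (0 to 365 RPM, median 0). Most cells of both classes thus held little or none of it, and the sums of 109.3 and 40.95 RPM rest on the few that did. Within the pool sets its log2 ratio was 1.56 and 0.90. The Lgr5-high cell held more *Rnf43* in 69.1% of pairs of cells in pool 2 but in only 39.4% in pools 3 to 5, ties being split evenly. *Znrf3*, its homologue, was found in far more cells and was not past 2-fold (324 and 240 RPM, medians 276 and 59.1). *Lgr4*, the related receptor, stood at 95.3 RPM in Lgr5-high, 315 RPM in cells with 1 to 4 *Lgr5* reads and 142.4 RPM in Lgr5-zero cells. The R-spondin genes *Rspo1*, *Rspo2*, *Rspo3* and *Rspo4* lay under 10 RPM.

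Among 26 Wnt targets and inhibitors, 14 were measured, 4 were higher (*Nkd1*, *Tcf7l1*, *Sox9*, *Tnfrsf19*) and 3 lower (*Axin2*, *Ascl2*, *Kremen1*), and the median log2 ratio was 0.26. Over all measured genes the shares were 15.8% and 10.3%. *Nkd1*, a feedback inhibitor of Wnt signalling, ranged from 0 to 419 RPM in Lgr5-high cells and from 0 to 124.3 RPM in Lgr5-zero cells, with a median of 0 in both. More than 10 reads were seen in 6 of 23 and 3 of 16 cells, and the sums were 57.3 and 17.6 RPM (log2 ratio 1.95 in pools 1 and 2, 1.45 in pools 3 to 5). *Axin2*, a scaffold of the complex that destroys beta-catenin and a common readout of Wnt activity, went the other way. It ranged from 0 to 79.9 RPM in Lgr5-high and from 0 to 288 RPM in Lgr5-zero cells, again with medians of 0. More than 10 reads were seen in 4 of 23 and 5 of 16 cells, and the sums were 11.7 and 37.1 RPM (log2 ratio -6.92 and -1.61 within the pool sets). *Tcf7l1*, a repressive TCF factor, summed to 61.2 and 5.32 RPM, with log2 ratios of 6.52 and 0.82 within the pool sets. The Lgr5-high cell held more of it in 59.5% of pairs of cells in pool 2 but in 38.5% in pools 3 to 5. *Tcf7l2*, *Ccnd1*, *Ccnd2*, *Myc* and *Bambi* were measured and not past 2-fold. The targets *Lef1*, *Tcf7*, *Notum* and *Sp5* lay under 10 RPM.

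The 250 bases before the RefSeq start site of *Rnf43*, *Nkd1* and *Axin2*, the Wnt feedback genes described above, are shown with those of *Afp*, the gene that defines these cells, since they are the stretches in which a TCF or a hepatocyte factor would be looked for first. Capitals mark CTTTG, the core that TCF/LEF factors bind, and GTTAAT, a part of sites bound by hepatocyte factors, on either strand (GRCm38.p6, plus strand, 5′ to 3′).
Afp, chr5:90490464-90490713: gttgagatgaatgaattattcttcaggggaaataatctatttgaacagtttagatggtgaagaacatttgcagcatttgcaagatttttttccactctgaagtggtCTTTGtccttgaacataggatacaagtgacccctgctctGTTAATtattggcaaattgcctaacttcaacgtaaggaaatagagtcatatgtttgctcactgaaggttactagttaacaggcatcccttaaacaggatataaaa
Rnf43, first of 2 starts, chr11:87662837-87663086: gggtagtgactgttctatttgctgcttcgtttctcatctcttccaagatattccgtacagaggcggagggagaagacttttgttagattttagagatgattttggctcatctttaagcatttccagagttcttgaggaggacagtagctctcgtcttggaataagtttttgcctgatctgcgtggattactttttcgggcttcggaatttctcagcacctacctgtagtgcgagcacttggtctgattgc
Nkd1, chr8:88527383-88527632: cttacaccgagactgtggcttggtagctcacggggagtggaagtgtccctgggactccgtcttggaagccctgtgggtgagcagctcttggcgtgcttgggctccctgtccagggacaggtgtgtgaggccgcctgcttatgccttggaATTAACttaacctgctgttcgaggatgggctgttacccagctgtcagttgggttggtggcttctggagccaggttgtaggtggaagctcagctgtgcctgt
Axin2, chr11:108920099-108920348: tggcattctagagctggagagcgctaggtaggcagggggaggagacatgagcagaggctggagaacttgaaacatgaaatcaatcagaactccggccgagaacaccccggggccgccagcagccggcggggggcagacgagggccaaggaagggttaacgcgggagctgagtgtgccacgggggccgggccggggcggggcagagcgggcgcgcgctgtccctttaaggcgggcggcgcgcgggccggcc
*Afp* held 1 match of each, at -144 and -105, *Nkd1* held 1 GTTAAT match at -101, and neither stretch of *Rnf43* nor that of *Axin2* held a match. In GENCODE, *Nkd1* starts at 88521354 and *Rnf43* at 87662722, so that the stretches shown for these 2 genes lie inside the genes as annotated there. CTTTG was found in 48.6% and GTTAAT in 6.43% of all 32851 stretches of this length. The longer TCF/LEF form, in which the core is followed by 2 bases that are each A or T, was found in 14.8% of all stretches. It was found in 8.02% of the first stretches of genes counted as higher (1010 genes matched by symbol), in 8.91% of those counted as lower (640) and in 9.35% of all measured genes (6394). A match is a string of letters and no binding was measured.

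Of 27 Wnt ligands, receptors and effectors, 11 were measured, 1 was higher (*Ror1*) and 4 were lower (*Wnt9a*, *Fzd3*, *Lrp5*, *Ror2*), against 15.8% and 10.3% of all measured genes, and sparsely detected genes met the rule more often than others. *Ror1*, a receptor of non-canonical Wnts, summed to 59.4 and 7.75 RPM, with log2 ratios of 1.43 and 6.76 within the pool sets. In pool 2, however, the Lgr5-high cell held more *Ror1* in only 36.4% of pairs of cells. Neither *Ror1* nor *Ror2* met the rule without the highest cell of each class. The Wnt receptor *Fzd3* ranged from 0 to 148.3 RPM (median 0.986) in Lgr5-high and from 0 to 420 RPM (median 10.3) in Lgr5-zero cells, with log2 ratios of -7.31 and -1.21. The coreceptor *Lrp5* summed to 20.7 and 57.2 RPM, with log2 ratios of -0.83 and -2.58. The cells overlapped for all of these genes. The coreceptor *Lrp6* did not pass (124.8 and 129.2 RPM). Of 14 genes of the hepatocytes around the central vein, which depend on Wnt in the adult liver, 9 were measured, and 3 were higher (*Glul*, *Rnf43*, *Nkd1*) and 1 lower (*Axin2*), against the same shares of all measured genes. *Glul*, which encodes glutamine synthetase, had a median of 49.5 RPM per cell in Lgr5-high and of 2.11 RPM in Lgr5-zero cells, with ranges of 0 to 1864 and 0 to 465 RPM. Its summed level was 2.61-fold higher, with log2 ratios of 1.91 and 0.83 within the pool sets, but without pool 2 the ratio was -0.029. *Cyp2e1* and *Cyp1a2* lay under 10 RPM.

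**Figure D3:**
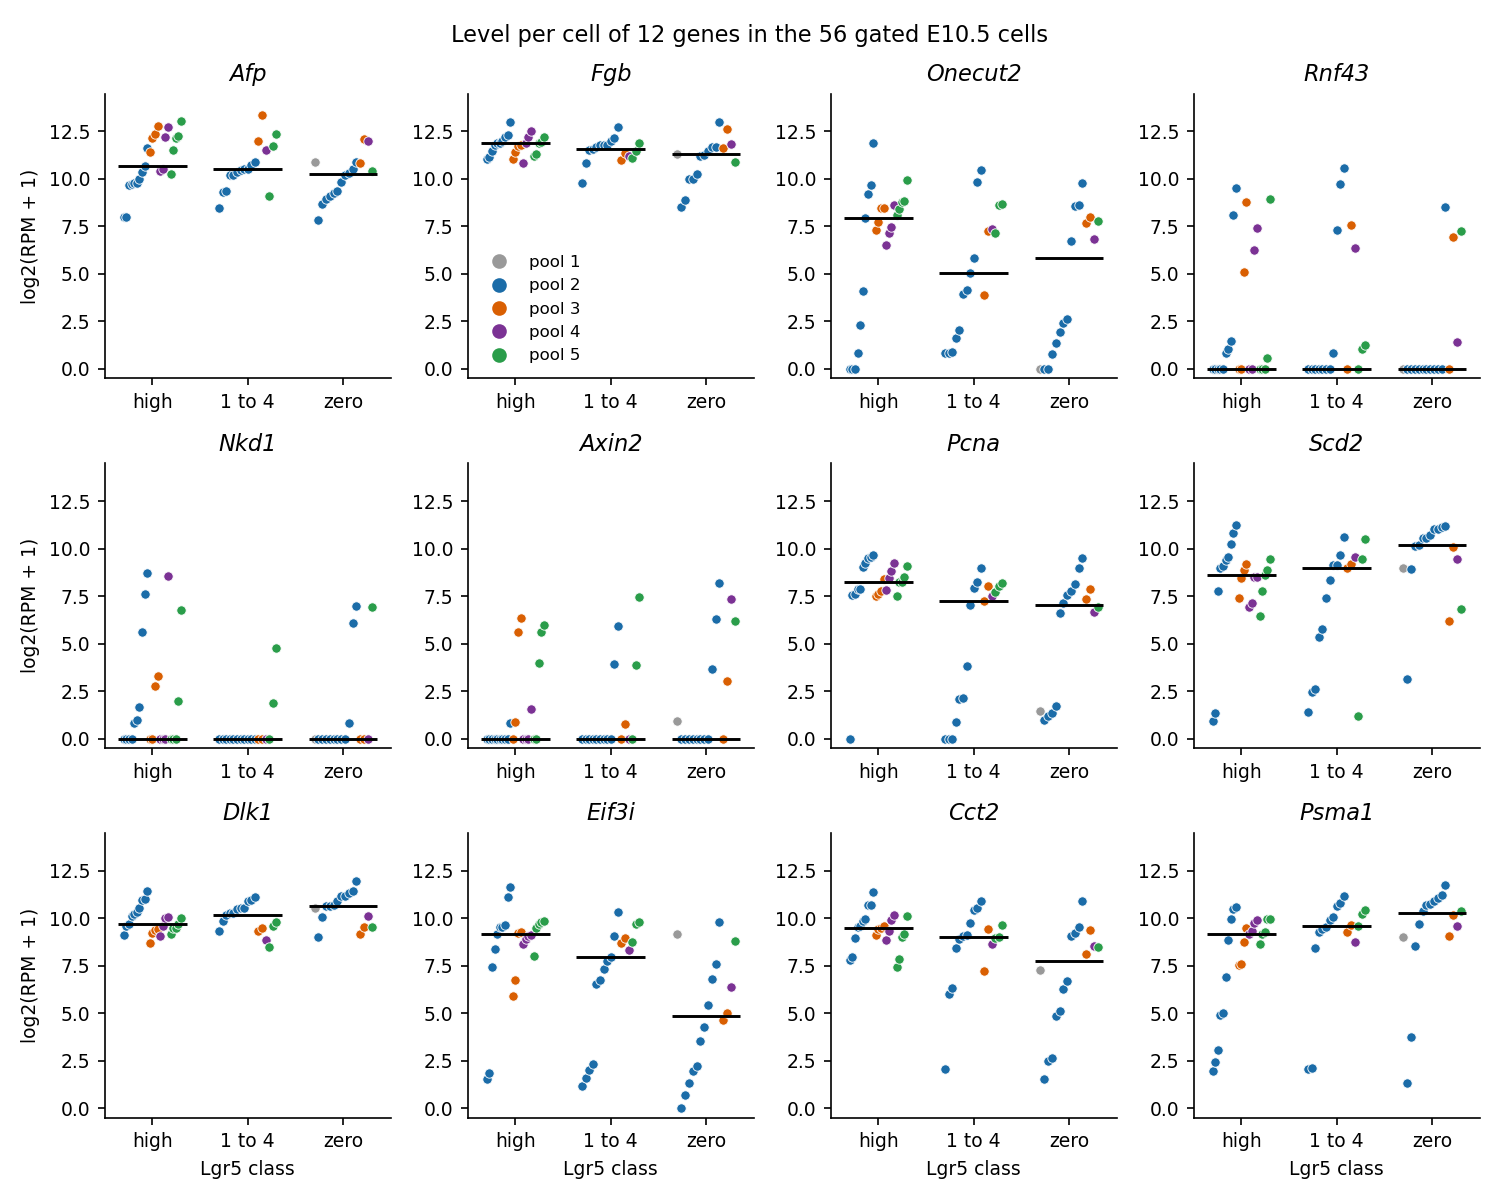
Level of 12 genes in each of the 56 gated E10.5 cells, as log2(RPM + 1), by Lgr5 class (more than 10, 1 to 4, and 0 *Lgr5* reads). Each point is a cell coloured by its library pool and each bar is the class median. Cells of the classes overlap for every gene, *Afp* and *Dlk1* differ between pools, and medians of *Eif3i* are 582, 253 and 27.6 RPM from high to zero.

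Of 22 hepatic transcription factors, 17 were measured, and *Onecut2* and *Gata6* were higher and none lower, with a median log2 ratio of 0.28. Over all measured genes, 15.8% were higher and 10.3% lower, so that these factors were not called more often than other genes. *Onecut2*, a factor of early hepatic and biliary development, ranged from 0 to 3833 RPM in Lgr5-high cells (median 242) and from 0 to 896 RPM in Lgr5-zero cells (median 55.4). It was read more than 10 times in 18 of 23 and 8 of 16 cells, and its sum was 2.79-fold higher (log2 ratio 1.84 and 0.93 within the pool sets). *Gata6*, an endoderm factor needed for the liver bud, had medians of 33.5 and 0.867 RPM and more than 10 reads in 14 of 23 and 5 of 16 cells, with log2 ratios of 2.39 and 0.92. *Hhex* (282 and 200 RPM) and *Prox1* (287 and 257 RPM), which hepatoblasts need to leave the endoderm and migrate, were not past 2-fold. *Xbp1*, a factor of the secretory pathway, was 2.54-fold higher in the sum but is not counted, as its log2 ratio was -1.02 in pools 1 and 2 and 1.85 in pools 3 to 5.

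Biliary genes were sparse. Of 16 such genes 6 were measured, and *Sox9* and *Epcam* were higher by the rule, against 15.8% of all measured genes. *Sox9*, a factor of bile duct precursors, was read more than 10 times in 7 of 23 Lgr5-high cells (0 to 322 RPM) and in 2 of 16 Lgr5-zero cells (0 to 359 RPM), the highest cell of all being an Lgr5-zero cell. Its sums of 57.5 and 22.3 RPM gave log2 ratios of 0.59 in pools 1 and 2 and 6.47 in pools 3 to 5. Without pool 2, which leaves pools 3 to 5 and 1 Lgr5-zero cell of pool 1, the ratio was -0.23. *Epcam*, an adhesion protein of progenitors and ducts, exceeded 10 reads in 4 cells of each class and did not meet the rule without the highest cell of each class. *Krt19* and *Spp1*, both markers of mature ducts, lay under 10 RPM, and *Krt7* was measured but did not meet the rule.

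Of 27 genes of epithelial adhesion, 16 were measured, 3 were higher (*Epcam*, *Tjp1*, *Jup*) and 2 lower (*Cldn6*, *Cgn*), near the shares of 15.8% and 10.3% over all genes, with a median log2 ratio of 0.55. *Jup*, which encodes plakoglobin, had medians of 39.97 and 0 RPM per cell and log2 ratios of 2.04 and 0.34 within the pool sets. *Tjp1*, a scaffold of tight junctions, summed to 63.6 and 5.88 RPM, with log2 ratios of 3.86 and 2.09. *Cgn*, another tight junction protein, summed to 55.2 and 139.2 RPM, with log2 ratios of -2.12 and -0.61, but when all 5 gate genes were required its ratio was 0.51. Neither *Cgn* nor *Cldn6* met the rule without the highest cell of each class. *Krt18*, the main keratin here, did not pass (747 and 470 RPM). Of 15 genes of mesenchymal transition, 8 were measured and *Zeb1* and *Zeb2*, repressors of epithelial genes, were lower. *Zeb1* was found in all 39 cells, with medians of 10.3 and 11.3 RPM, so that its sums of 50.5 and 130 RPM reflect the upper cells of each class. *Zeb2* in Lgr5-zero cells rested in part on the cell with mesenchymal reads described above, which held 222 RPM.

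**Figure D4:**
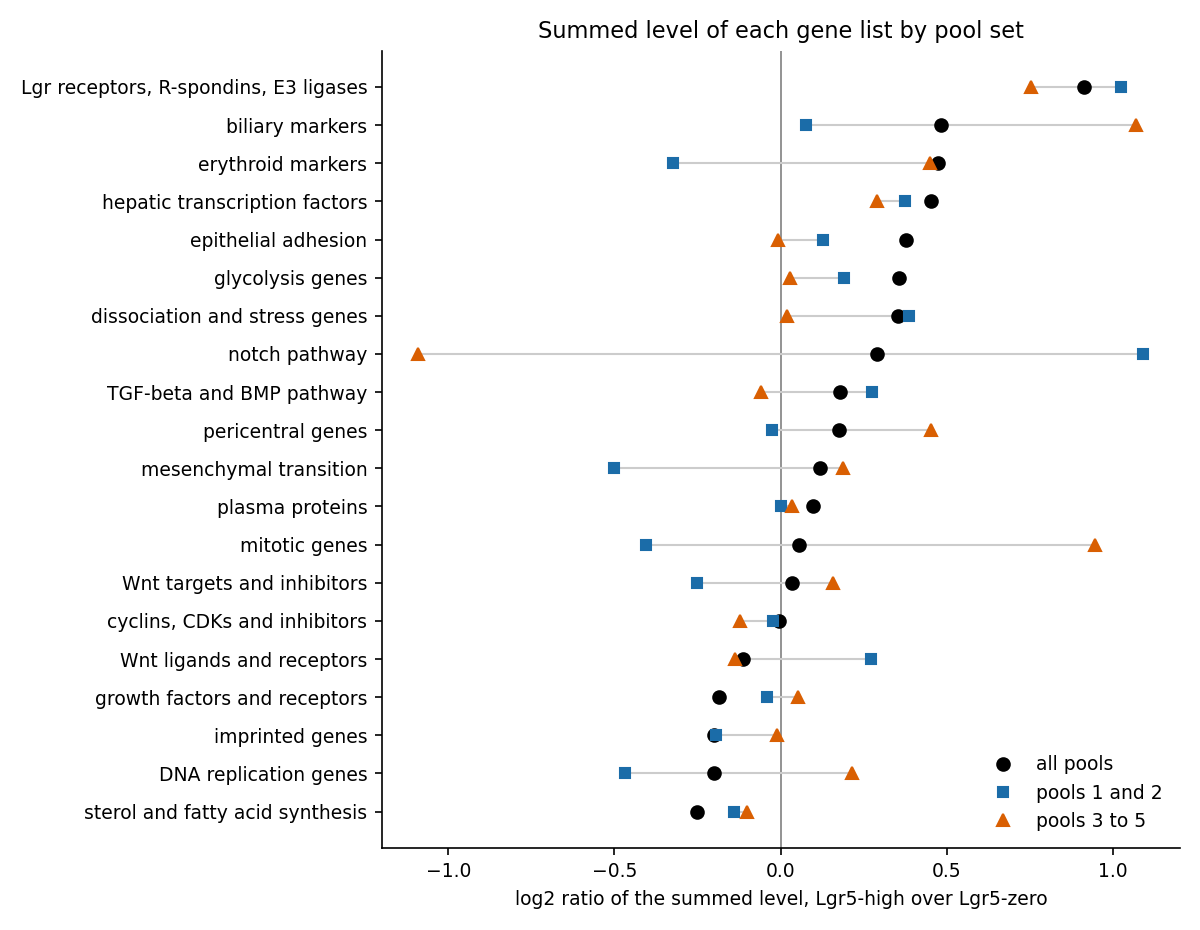
Log2 ratio of the summed level (RPM) of each gene list, Lgr5-high over Lgr5-zero cells, over all pools (black circles), within pools 1 and 2 (blue squares) and within pools 3 to 5 (orange triangles), for lists with at least 4 measured genes except those of the sex chromosomes. The ratio of mitotic genes is -0.41 in pools 1 and 2 and 0.95 in pools 3 to 5, and that of Notch genes 1.09 and -1.09. The list of Lgr receptors, R-spondins and E3 ligases includes *Lgr5*, by which the classes were set. In Lgr5-high cells *Lgr5* makes up 268 of the 797 RPM of that list, so its ratio is in part fixed by the choice.

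Signalling genes outside the Wnt pathway went both ways. Of 30 genes of TGF-beta and BMP signalling, 19 were measured, and 3 were higher (*Tgfbr3*, *Bmpr2*, *Smad4*) and 5 lower (*Tgfbr1*, *Acvr1*, *Bmp7*, *Smad5*, *Fst*), with a median log2 ratio of -0.16. Of all measured genes, 15.8% were higher and 10.3% lower. *Tgfbr1*, the type I receptor for TGF-beta, ranged from 0 to 202.9 RPM in Lgr5-high cells (median 0.986) and from 0 to 1322 RPM in Lgr5-zero cells (median 20.1), and its sum was 6.08-fold lower. The BMP and activin receptor *Acvr1* had medians of 1.31 and 71.8 RPM and sums of 78.4 and 238 RPM. Both ratios were far larger in pools 1 and 2 (-5.25 and -3.48) than in pools 3 to 5 (-0.72 and -0.24). The BMP targets *Id1*, *Id2* and *Id3* were read in most cells and did not pass, *Id2* standing at 925 and 509 RPM. Of 17 Notch genes, 6 were measured, *Hes6* was higher and *Numb* lower. With cells thinned to equal depth the log2 ratio of *Hes6* was -0.17, and that of *Numb* was 0.29 when any *Lgr5* read counted as high and 0.024 when all 5 gate genes were required. Without the highest cell of each class neither *Numb* nor *Fst* met the rule. The summed level of the Notch genes gave a log2 ratio of 1.09 in pools 1 and 2 and -1.09 in pools 3 to 5. Of 36 growth factors and receptors, 22 were measured, *Met*, the HGF receptor, and *Pdgfc* were higher and *Kit* lower. More than 10 reads of *Met* were seen in 4 of 23 Lgr5-high and 2 of 16 Lgr5-zero cells. *Pdgfc* exceeded 10 reads in 2 of 23 Lgr5-high cells, and 71.8% of its reads in this class came from 1 cell. *Dlk1*, a surface protein of hepatoblasts that is also imprinted, was found in all cells and did not pass (1029 and 1732 RPM, medians 834 and 1593). It was lower in Lgr5-high cells within each pool set, by log2 ratios of -0.46 and -0.16. Of 20 imprinted genes, 13 were measured and *Impact* was lower (77.7 and 206.1 RPM, log2 ratios -0.94 and -2.30 within the pool sets). *Gnas* and *Zim1* were past 2-fold in the sum (-2.65 and -1.03) but did not meet the pool rule.

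Genes of cell division gave no single direction. Of 22 mitotic genes, 21 were measured and 6 were higher (*Aurka*, *Aurkb*, *Cenpe*, *Plk1*, *Tpx2*, *Nusap1*), against 15.8% of all measured genes, while the sum of the list, 3461 RPM in Lgr5-high and 3331 RPM in Lgr5-zero cells, had a log2 ratio of -0.41 in pools 1 and 2 and 0.95 in pools 3 to 5. The polo kinase *Plk1* ranged from 0 to 1089 RPM (median 7.28) and from 0 to 419 RPM (median 1.13), with log2 ratios of 1.53 and 2.23. *Top2a* (472 and 424 RPM) and *Cdk1* (409 and 551 RPM) did not pass. Of 22 genes of DNA replication, 19 were measured, 2 were higher (*Pcna*, *Ccne2*) and 3 lower (*Rfc3*, *E2f1*, *Slbp*), against 15.8% and 10.3% of all measured genes. *Pcna*, the sliding clamp of DNA polymerases, was among the most even of the differences: it exceeded 10 reads in 22 of 23 Lgr5-high cells (0 to 813 RPM, median 307) and in 11 of 16 Lgr5-zero cells (0.953 to 716.4 RPM, median 130). Its log2 ratio was 1.23 and 1.004 within the pool sets, and in 79.3% of all pairs of a Lgr5-high with a Lgr5-zero cell the Lgr5-high cell held more. *Slbp*, which binds histone mRNA, and *Rfc3*, a subunit of the clamp loader, summed to 210 against 571 RPM (log2 ratios -1.25 and -0.63) and to 222 against 582 RPM (-2.18 and -0.15). With all 5 gate genes required the ratio of *Rfc3* was 0.26. Of 12 cyclins, CDKs and inhibitors, 9 were measured and none met the rule.

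Of 26 genes of sterol and fatty acid synthesis, 21 were measured, 4 were higher (*Hmgcs1*, *Nsdhl*, *Srebf1*, *Scd1*) and 3 lower (*Pmvk*, *Dhcr7*, *Scd2*), near the shares of 15.8% and 10.3% over all genes. *Scd2*, the fetal stearoyl-CoA desaturase, ranged from 0.904 to 2450 RPM in Lgr5-high cells (median 396) and from 7.68 to 2352 RPM in Lgr5-zero cells (median 1152). Its sum was 2.25-fold lower, with log2 ratios of -0.83 and -0.53. Of 23 glycolytic genes, 15 were measured and *Pfkp* was lower, and of the abundant ones *Ldha* stood at 3055 and 2138 RPM. Of 24 genes known to respond to stress or to tissue dissociation, 19 were measured, and *Jun*, *Ier2* and *Atf3*, all immediate early genes, were higher and *Gadd45a* lower. The shares over all measured genes were 15.8% and 10.3%, so these counts do not set the list apart. The median log2 ratio of this list was 0.91, and its sum had a ratio of 0.39 in pools 1 and 2 and 0.02 in pools 3 to 5. *Atf3* held more than 10 reads in 11 of 23 Lgr5-high cells (0 to 429 RPM) and in 0 of 16 Lgr5-zero cells (0 to 1.06 RPM), and its sums were 81.3 RPM (77.9 to 84.8) and 0.253 RPM (0.0823 to 0.591), with log2 ratios of 7.93 and 7.11. *Ier2* had medians of 198.2 and 1.93 RPM and log2 ratios of 0.94 and 1.53. The part of these genes in the other differences was not tested.

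Among genes that met the rule also without the highest cell of each class, the largest ratios belonged to genes with more than 10 reads in 4 to 10 of the 23 Lgr5-high cells. Among the 12 largest were *Pon3*, a lactonase of the liver, *Nsdhl*, an enzyme of cholesterol synthesis, *Kif4*, a mitotic kinesin, *Snapin*, *B3galt6*, *Phkg2*, *Gstt2*, *Cramp1l*, *D230025D16Rik*, *Tmem17* and *Strada*, with medians of 0 to 1.06 RPM in Lgr5-high cells. *Nsdhl* reached 3795 RPM in 1 Lgr5-high cell but its median was 0.709 RPM. For *Pon3*, *B3galt6*, *Gstt2*, *Cramp1l*, *D230025D16Rik*, *Tmem17* and *Strada* the Lgr5-zero class held at most 3 reads in all. Their ratios are therefore lower bounds set by the floor. Among genes that met the rule also without the highest cell of each class, the 12 smallest ratios were those of *B230118H07Rik*, *Mknk1*, *Rit1*, *Copg2*, *Fam45a*, *Sap30l*, *Ago1*, *Tsc1*, *Btbd1*, *Ap1s3*, *Spred1* and *Map3k1*. *Rit1*, a small GTPase, reached 1164 RPM in Lgr5-zero cells, in which its median was 0, and its log2 ratio was -9.78 in pools 1 and 2 and -0.18 in pools 3 to 5.

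The classes were better told apart, cell by cell, by some genes of moderate ratio, which were looked up after their values had been seen. These genes were picked for their shares of pairs of cells over all pools, in pool 2 and in pools 3 to 5. The shares given here therefore describe the choice and are not a result. *Eif3i*, a subunit of translation initiation factor 3, ranged from 1.93 to 3191 RPM in Lgr5-high cells (median 582) and from 0 to 892 RPM in Lgr5-zero cells (median 27.6). The Lgr5-high cell held more in 82.3% of pairs of cells, against a mean of 55.2% over all measured genes. Within pool 2 the share was 79.1% and within pools 3 to 5 it was 90.4%, and the sum was 4.62-fold higher. *Cct2* was above 10 reads in all 23 Lgr5-high cells (171.7 to 2699 RPM, median 719.1) and in 13 of 16 Lgr5-zero cells (1.91 to 1938 RPM, median 213), with 80.4% of pairs. *Sec61g*, a subunit of the translocon, had medians of 44.49 and 15.04 RPM and 82.9% of pairs. In the other direction, *Vars* had medians of 100.5 and 376 RPM and *Psma1* of 571 and 1253 RPM, and the Lgr5-high cell held more in 21.7% and 27.7% of pairs. *Mrpl30*, a protein of the mitochondrial ribosome, had medians of 204.6 and 427 RPM and 19.6% of pairs. Cells of the classes overlapped for each of these genes.

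The 17 cells with 1 to 4 *Lgr5* reads were set beside the classes without a ratio, since both would share cells with the comparison above. *Eif3i* summed to 683, 370 and 147.7 RPM in Lgr5-high, intermediate and Lgr5-zero cells, *Cct2* to 802, 641 and 379 RPM, and *Psma1* to 566, 896 and 1285 RPM, so that for these genes the intermediate cells lay between. These genes were picked because the classes differed in them, so that cells not used in the picking are apt to lie between. No graded relation to *Lgr5* is read from this. For *Scd2* they lay at 466 RPM, below both, and for *Rnf43* at 142.8 RPM, above both. *Nkd1* was at 2.36 RPM and *Pcna* at 147.3 RPM in these cells, below both classes, and *Atf3* at 4.40 RPM, between them.

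The same split was then made in other cells. Among E10.5 cells outside the gate with more than 10 reads of *Pdgfra*, a mesenchymal receptor, the 20 cells with more than 10 *Lgr5* reads (13.51% of them) were set against those with 0 (69.59%). There, 20.4% of 9314 genes were past 2-fold in either direction by the same rule, against 26.1% in hepatoblasts. In hepatoblasts 23 cells were set against 16, whereas the Lgr5-zero class of *Pdgfra*-positive cells was far larger than their Lgr5-high class. The shares can therefore not be compared between hepatoblasts and the *Pdgfra*-positive cells. Of the genes counted as higher in hepatoblasts and measured in these cells too (1110), 50.4% lay above a ratio of 1, and of those counted as lower 48.5%, against 49.4% of all genes measured in both (7178). *Nkd1* was higher in both kinds of cell (268.5 and 104.4 RPM in *Pdgfra*-positive cells), *Axin2* was lower in Lgr5-high hepatoblasts and higher in Lgr5-high *Pdgfra*-positive cells (75.4 and 24.7 RPM), and *Eif3i* (281 and 313 RPM) and *Vars* (60.1 and 107.8 RPM) were below 2-fold there. The differences between the kinds of cell were not tested. At E13.5, 1 cell entered the gate, with 0 *Lgr5* reads.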

How the data were processed

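Single E10.5 and E13.5 liver cells were sequenced by Smart-seq2 (653 cells, each 1 sample). According to the submitters' processing notes and the methods, the authors aligned reads with STAR 2.6.0c to GRCm38.p6, counted uniquely aligned reads per Ensembl gene with Subread 1.6.2 (featureCounts), with no strand setting given in the sources used here, and kept cells by depth, detected genes, and mitochondrial and spike-in reads. The deposited counts are raw reads on 54195 genes, of which 54042 could be named, and 0 columns were left unused. Genes that overlap, on either strand, cannot be told apart. A deposited table of batch-corrected values, treated as a score, was not used.

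Reads were summed over the cells of a class and divided by their reads on all genes (RPM). Genes under a mean of 10 RPM were left out, a class at or under 3 counts was set to that floor, and no ratio was formed where both classes were at it. Pool sets (pools 1 and 2, pools 3 to 5) were required to lie on the same side of 1. Since the labels name no animal, litter or day, each class is 1 sample and 0 tests were run. The analysis was tested on simulated data. These were Poisson counts from a profile shared by all cells apart from the fold changes set. The simulation thus does not cover the spread between cells or pools seen in the data. It was run in Python 3.11.15 with numpy 2.4.6, pandas 2.3.3, scipy 1.17.1 and matplotlib 3.10.9. Coordinates are from GENCODE vM21 and promoter sequences from RefSeq (GRCm38.p6).

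Named genes were *Lgr5*, the gate genes, the 12 called genes with the largest and the 12 with the smallest ratio whose call held without the highest cell, and in each of 25 lists up to 4 members past 2-fold and up to 3 others with the highest level. The members and lists were chosen with earlier results of these data known. A few genes that the rule names are not reported here. Lists for mesothelial and sex-linked genes were also formed: of 8 mesothelial genes 2 were measured and *Podxl* was higher (25.1 and 10.9 RPM), and of 5 sex-linked genes 4 were measured and *Kdm5d* was lower (19.8 and 59.0 RPM).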

Additional observations from a re-analysis of the deposited data

How the results depend on the processing

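No paired analysis was possible because the replicate numbers follow accession order and carry no shared animal, litter or day. Counts are given as genes higher and lower in Lgr5-high cells, against 1270 and 827. They were 2071 and 1461 without pool 2, 1979 and 1861 without pool 3, and 2166 and 2434 in pool 2 alone, and in each of these too few cells were left to require both pool sets. A floor of 50 RPM gave 427 and 423, a 4-fold threshold 804 and 362, and genes found in all 39 cells, a setting chosen after seeing the data, 13 and 10. Without the highest cell of each class, 1335 were higher and 253 lower, so that 84.1% of calls were higher. The median log2 ratio was then 0.51, as the step takes a larger part of the smaller Lgr5-zero class. The share of Lgr5-high cells was 71.4% with any *Lgr5* read and 23.2% with more than 100 reads. Other settings kept the counts within 1.5 times, but not always the genes: of the 1270 and 827 genes, 774 and 549 were shared with thinned cells, 619 and 461 with up to 10 reads taken as zero, and 573 and 304 with all 5 gate genes required. Of 1785 values of 94 called named genes under alternatives, 20 lay on the other side of 0. With cells thinned to 567698 reads these log2 ratios were *Hes6* -0.17 and *Met* -0.25, with more than 100 *Lgr5* reads *Podxl* -0.38, and with any read *Numb* 0.29. With up to 10 reads taken as zero they were *Met* -0.10, *Aurka* -0.15 and *Tpx2* -0.079. With all 5 gate genes required they were *Rit1* 4.335, *Cgn* 0.51, *Numb* 0.024, *Rfc3* 0.26, *Pmvk* 1.66, *Pdgfrb* 0.12, *Col1a1* 1.77, *Col1a2* 0.26 and *Podxl* -1.64. Without pool 2 they were *Rit1* 0.19, *Sox9* -0.23 and *Glul* -0.029, and in pool 2 alone *Dhcr7* 0.38. The cause was not tested. Levels at or under 3 counts in a class could not be measured at this depth and were set to that floor. A ratio to such a level is only a bound. The Lgr5-zero class stood at or under the floor in 120 of the 1270 higher genes. The Lgr5-high class did so in 16 of the 827 lower genes.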
